A study of Homo sapiens with 24 samples.

Results

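PDLIM5 encodes PDZ and LIM domain protein 5, also called ENH, a cytoplasmic scaffold of the actin cytoskeleton. It was measured here through 1 transcript, ENST00000514743, in cells of the human breast cancer line MDA-MB-231. The members were chosen by Ensembl transcript ID: of 7 PDLIM5 IDs, 1 had a row in each table and passed the filter on low values. The other 6, ENST00000317968, ENST00000380180, ENST00000437932, ENST00000538141, ENST00000542407 and ENST00000615540, were not analysed here. This row was 1 of 11252 transcripts in the LM2 table and 1 of 10767 in the HNRNPC knockdown table. In RefSeq the gene lies on the + strand of chromosome 4, from 94451942 to 94668223 (GRCh38.p14, 216282 bases), with 9 coding transcripts and 1 noncoding one, and no other RefSeq gene in the table used here overlaps it. The tables carry no gene names, so the pairing of this ID with PDLIM5 comes from the rule and not from the files.

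The series holds 24 libraries, 12 of RNA and 12 of ribosome footprints, from 4 groups of this line with 3 replicates each. LM2 cells, labelled as highly metastatic to lungs, were set against the parental line, labelled as poorly metastatic, and neither is labelled with a guide. Cells labelled HNRNPC knockdown (sgHNRNPC) were set against control cells (sgCTRL), and both are in the poorly metastatic background. All groups were grown in the same medium. Whether replicates were separate cultures, and whether the guide lines were clones, is not given in the labels, so the p-values rest on a spread between samples that may be technical.

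The PDZ domain of PDLIM5 binds alpha-actinin, and its LIM domains bind protein kinase C, so the protein tethers signalling enzymes to actin filaments. Shorter splice forms that lack the LIM domains are known, in heart muscle among other tissues. HNRNPC is a nuclear protein that binds uridine-rich tracts of pre-mRNA and is known to affect splicing and the choice of the site where an mRNA is cut and polyadenylated. An mRNA cut at a more distal site carries a longer 3' end, which can hold more sites for RNA-binding proteins and microRNAs and so can alter how much protein is made per mRNA. The study's title names translational control from the nucleus, and PDLIM5 is known as one of its polyadenylation targets. The tables give 1 value per transcript and library, so the choice between 3' ends, splice forms and protein levels were not analysed here, and HNRNPC itself was not checked.

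Ribosome footprints are stretches of mRNA shielded by a ribosome during nuclease digestion, and footprints per RNA, also called translation efficiency, is the footprint value divided by the RNA value of the same transcript. Which part of the transcript the RNA reads were counted over was not examined here. Whether a change in this ratio reflects translation alone was not tested. PDLIM5 was lower in LM2 cells than in parental cells in RNA, in footprints and in footprints per RNA, and the same held in HNRNPC knockdown cells against control guide cells. Footprints were 48.3% lower in LM2 cells and 67.0% lower in knockdown cells, by the ratio of group means. RNA was 21.8% lower in LM2 cells and 50.03% lower in knockdown cells. For footprints per RNA the falls were of 33.8% (LM2) and 33.5% (knockdown). The tables were normalized separately, so each comparison was tested within its own table, and the sizes in the 2 experiments stand side by side with no test between them.

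**Figure D1:**
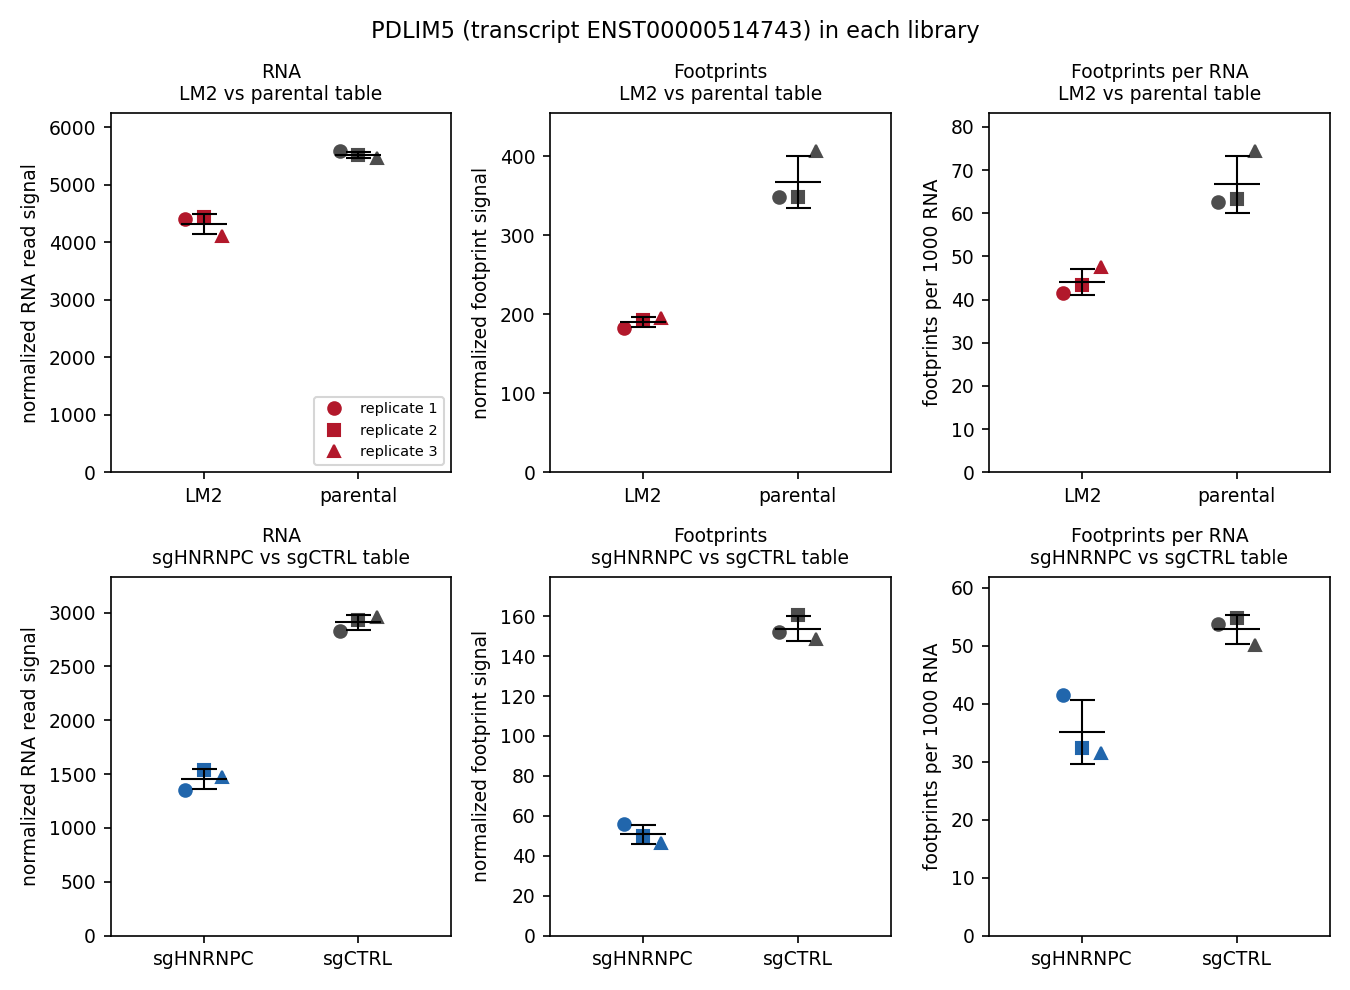
PDLIM5 RNA signal, footprint signal and footprints per 1000 units of RNA signal in each library, with LM2 and parental cells in the upper row and sgHNRNPC and sgCTRL cells in the lower row. Points are replicates, long dashes are means and bars are the SD (n = 3); every LM2 point is below every parental point and every sgHNRNPC point is below every sgCTRL point, with footprints of 183 to 195 against 349 to 406 in the upper row and of 46.5 to 56.0 against 148 to 161 in the lower row.

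RNA of PDLIM5 fell moderately in LM2 cells. The normalized RNA signal was 4410, 4435 and 4110 in LM2 replicates 1, 2 and 3, against 5578, 5517 and 5462 in parental replicates 1, 2 and 3. The groups did not overlap, and replicate 3 was the lowest of both. The means were 4318 ± 181 in the LM2 group and 5519 ± 58.3 in the parental group (SD, n = 3 each). On the log2(value + 1) scale the change was -0.35 ± 0.04 (SE, 95% interval -0.44 to -0.27, limma adjusted p = 4.94e-07). RNA changes of this kind were common in the table: 30.8% of the 9342 transcripts tested passed the same test for a fall, and 33.3% were lower in every LM2 library than in every parental library. PDLIM5 stood at rank 1429 from the lowest RNA change, so that 15.3% of transcripts changed as low or lower.

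Footprints of PDLIM5 fell by more than its RNA in LM2 cells. The footprint signal was 183, 193 and 195 in LM2 replicates 1, 2 and 3, against 349, 349 and 406 in parental replicates 1, 2 and 3. The LM2 libraries lay close together, and parental replicate 3 was the highest of all. The means were 190.2 ± 6.30 in the LM2 group and 368 ± 32.9 in the parental group (SD, n = 3 each). The change was -0.94 ± 0.09 on the log2 scale (SE, 95% interval -1.12 to -0.77, limma adjusted p = 2.23e-10). A fall in footprints was called for 14.5% of transcripts, and 20.4% were lower in every LM2 library. Only 178 of 9342 transcripts, 1.91%, had a footprint change as low as that of PDLIM5 or lower.

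Footprints per RNA of PDLIM5 fell in LM2 cells. With footprints and RNA of the same replicate number set against each other, there were 41.5, 43.4 and 47.4 units of footprint signal per 1000 units of RNA signal in LM2 replicates 1, 2 and 3. The same quantity was 62.5, 63.2 and 74.3 in parental replicates 1, 2 and 3. The highest LM2 ratio lay below the lowest parental ratio, as it did for 7.23% of transcripts. The means were 44.1 ± 3.03 in the LM2 group and 66.7 ± 6.61 in the parental group (SD, n = 3 each). The limma term for a group difference that depends on the assay gave a change of -0.59 ± 0.09 on the log2 scale (SE, 95% interval -0.78 to -0.39, adjusted p = 0.00257). A fall was called for 1.16% of transcripts, 108 in number. That number was 265, 16 and 21 without LM2 replicate 1, 2 and 3, and 25, 40 and 35 without parental replicate 1, 2 and 3, and PDLIM5 passed in each of these fits. PDLIM5 stood at rank 108 of 9342 from the lowest change, and 31 of these 108 transcripts passed the test.

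The mean PDLIM5 RNA signal of HNRNPC knockdown cells was 49.97% of that of control guide cells. The RNA signal was 1349, 1538 and 1475 in sgHNRNPC replicates 1, 2 and 3, against 2832, 2932 and 2964 in sgCTRL replicates 1, 2 and 3. The gap between the groups was far wider than the spread within either. The means were 1454 ± 96.3 in sgHNRNPC cells and 2910 ± 68.8 in sgCTRL cells (SD, n = 3 each). The change was -1.002 ± 0.06 on the log2 scale (SE, 95% interval -1.12 to -0.88, limma adjusted p = 7.28e-14). RNA fell for 45.4% of the 8283 transcripts tested, and 46% were lower in every sgHNRNPC library than in every sgCTRL library. Of all RNA calls 61.8% were falls, against 48.7% after quantile normalization. The median RNA change of all transcripts tested was -0.10, and with that median set to 0 the change of PDLIM5 was -0.90. A change as low or lower was found for 461 transcripts, 5.57%.

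Footprints of PDLIM5 fell further than RNA in the knockdown cells too. The footprint signal was 56.0, 49.8 and 46.5 in sgHNRNPC replicates 1, 2 and 3, against 152, 161 and 148 in sgCTRL replicates 1, 2 and 3. No knockdown library came near a control library. The means were 50.7 ± 4.84 in sgHNRNPC cells and 153.7 ± 6.28 in sgCTRL cells (SD, n = 3 each), a ratio of 3.03-fold lower. The change was -1.58 ± 0.12 on the log2 scale (SE, 95% interval -1.83 to -1.33, limma adjusted p = 9.74e-12). Footprints fell for 20.7% of transcripts, and 25.7% were lower in every sgHNRNPC library. PDLIM5 stood at rank 64 of 8283 from the lowest footprint change, so that 0.773% of transcripts changed as low or lower, and all 64 passed the test.

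Footprints per RNA of PDLIM5 fell in the knockdown cells as well. There were 41.5, 32.4 and 31.5 units of footprint signal per 1000 units of RNA signal in sgHNRNPC replicates 1, 2 and 3, against 53.7, 54.8 and 50.05 in sgCTRL replicates 1, 2 and 3. Knockdown replicate 1, which had the lowest RNA and the highest footprints of its group, had the highest ratio of the group, and it too lay below every control ratio, as the groups did for 7.8% of transcripts. The means were 35.1 ± 5.55 in sgHNRNPC cells and 52.8 ± 2.47 in sgCTRL cells (SD, n = 3 each). The change was -0.58 ± 0.12 on the log2 scale (SE, 95% interval -0.84 to -0.32, limma adjusted p = 0.0118). A fall was called for 1.74% of transcripts, which is 144 of 452 calls as deposited against 206 of 352 after TMM scaling. The 144 became 100, 65 and 93 without sgHNRNPC replicate 1, 2 and 3, and 79, 71 and 89 without sgCTRL replicate 1, 2 and 3. PDLIM5 stood at rank 212 of 8283 from the lowest change, with 97 of these 212 past the threshold. The change missed the threshold without sgHNRNPC replicate 2 (-0.53, adjusted p = 0.0613), without sgHNRNPC replicate 3 (-0.51, adjusted p = 0.0539) and without sgCTRL replicate 2 (-0.55, adjusted p = 0.062). Its 95% interval lay below 0 in each of these fits.

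In both experiments the calls on footprints per RNA depended on how the error was estimated. When the ratio was taken within each replicate number, as if footprints and RNA came from a shared lysate, the change was the same but missed the threshold, with a limma adjusted p of 0.191 for LM2 and 0.112 for the knockdown. The 95% intervals in that fit were -0.87 to -0.31 and -0.92 to -0.24. Over all transcripts tested, the deviations of footprints and RNA with the same replicate number from their group means had correlations of -0.0061 to 0.13, with 2 of 12 above 0.1. These correlations do not describe PDLIM5 itself. Its lowest RNA and highest footprints fell on the same replicate in LM2 (replicate 3), parental (replicate 3) and sgHNRNPC cells (replicate 1). In sgCTRL cells they did not. The labels state that RNA was isolated from the lysates but do not tie lysates to replicate numbers.

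**Figure D2:**
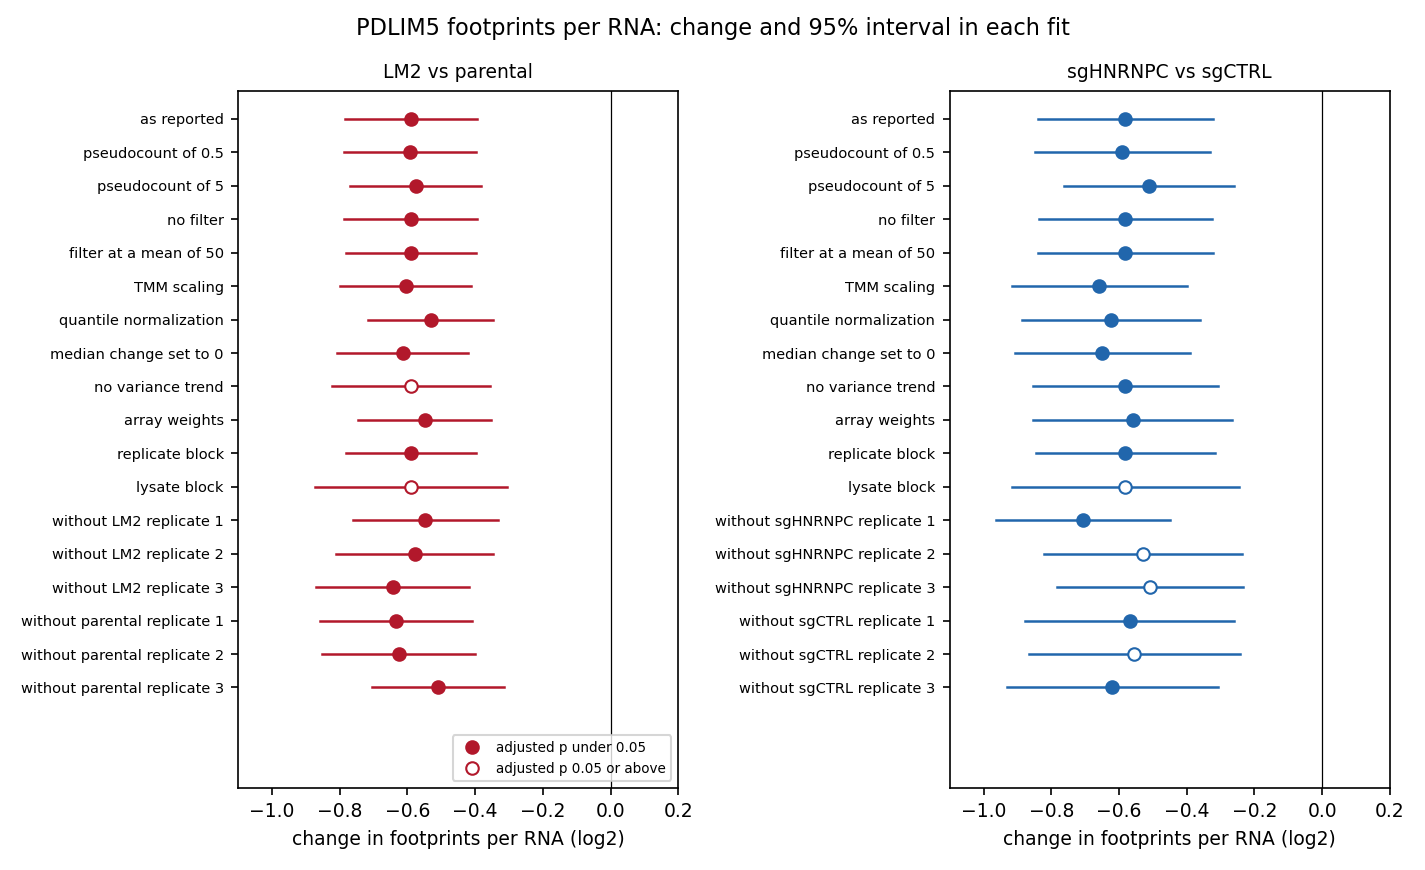
Log2 change in PDLIM5 footprints per RNA (horizontal axis) with its 95% interval under each way of fitting the data, for LM2 against parental cells (left) and sgHNRNPC against sgCTRL cells (right). Filled points have an adjusted p under 0.05 and open points do not; every interval lies below 0, with 2 open points on the left and 4 on the right.

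A footprint change on the log2 scale is the sum of the RNA change and the change in footprints per RNA. For PDLIM5 the RNA change made up 37.6% of the footprint change in LM2 cells and 63.3% in knockdown cells. Footprints per RNA made up the other 62.4% in LM2 cells and 36.7% in knockdown cells. These shares follow from the changes above, have no replicates of their own and were not tested against each other. They also depend on how the values were scaled. With the median change of each assay set to 0, the knockdown changes were -0.90 in RNA and -0.65 in footprints per RNA, against -1.002 and -0.58 as reported. The LM2 changes were then -0.33 and -0.61, against -0.35 and -0.59.

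As a share of the signal in each library, PDLIM5 gave the same directions. It took 132 ± 5.33 units per 1000000 of the RNA signal in LM2 cells and 162 ± 0.939 in parental cells, which is 18.4% less in LM2 cells. It took 183 ± 10.1 units per 1000000 of the footprint signal in LM2 cells and 328 ± 25.7 in parental cells, which is 44.3% less. The RNA share was 61.3 ± 3.84 per 1000000 in sgHNRNPC cells and 110 ± 3.49 in sgCTRL cells, which is 44.5% less in sgHNRNPC cells. The footprint share was 73.0 ± 9.85 per 1000000 in sgHNRNPC cells and 208 ± 7.87 in sgCTRL cells, which is 65.0% less (SD, n = 3 for all shares). Shares remove any factor common to a whole library. Every value is a mean over a culture, so a lower level in all cells and a loss in some of them cannot be told apart.

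**Figure D3:**
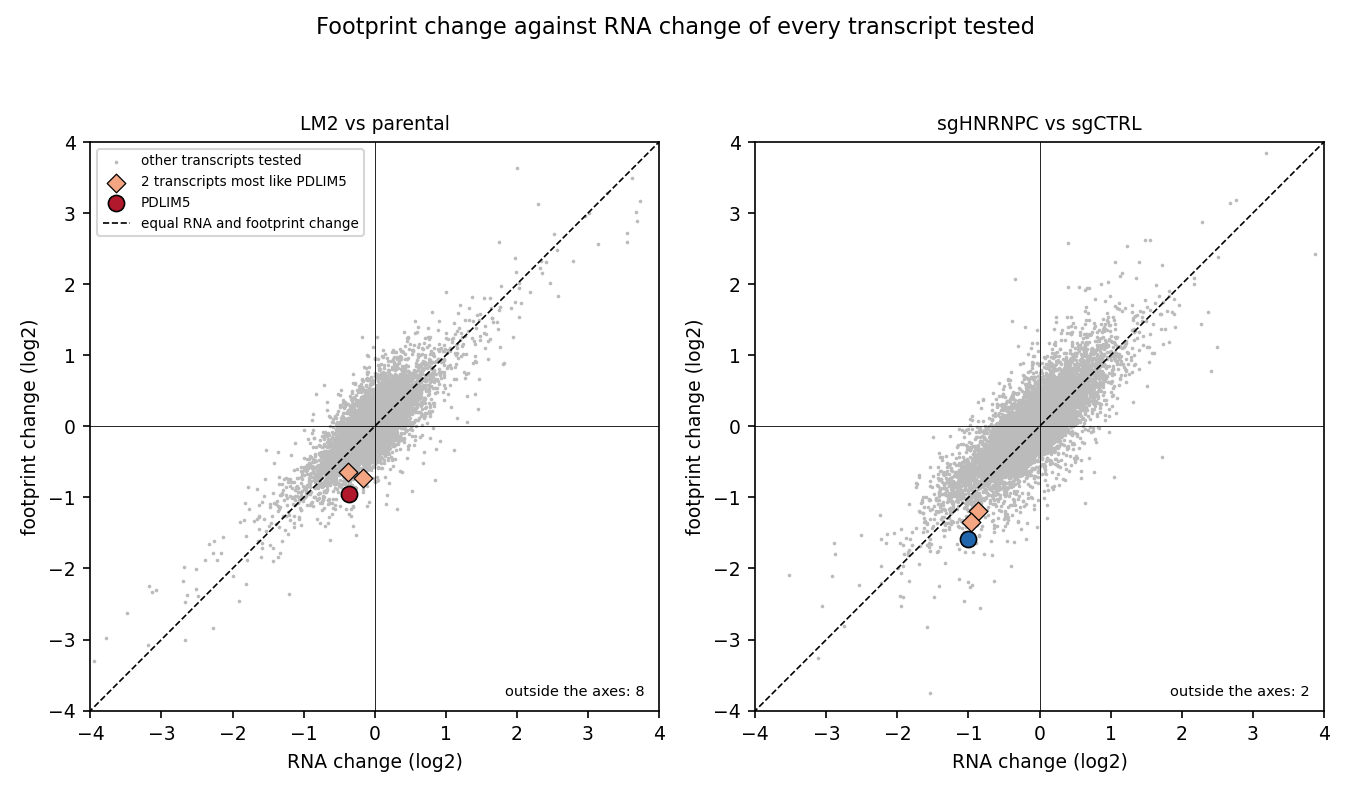
Log2 footprint change (vertical axis) against log2 RNA change (horizontal axis) for the 9342 transcripts tested in LM2 against parental cells (left) and the 8283 tested in sgHNRNPC against sgCTRL cells (right). The large circle is PDLIM5, diamonds are the 2 transcripts with the most similar profile and the dashed line marks equal changes; PDLIM5 lies under the line in both panels, at -0.35 and -0.94 on the left and -1.002 and -1.58 on the right.

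The tables share no library, and 8171 transcripts were tested in both. RNA, footprints and footprints per RNA all fell for 0.139% of transcripts in LM2 cells and 0.628% in knockdown cells. PDLIM5 was 1 of 3 transcripts whose RNA, footprints and footprints per RNA all fell in both experiments (0.0367%). RNA and footprints fell in both for 298 transcripts (3.65%), and footprints per RNA fell in both for 16 (0.196%). The count of 3 rests on the calls for footprints per RNA. It was 0 with footprints and RNA paired by replicate number, 1 without a variance trend, 1 and 2 without sgHNRNPC replicate 2 and 3, and 1 without sgCTRL replicate 2, and PDLIM5 was not among the transcripts counted in any of these fits. It was 2 with the replicate block, PDLIM5 included. Footprint changes at least as low as those of PDLIM5 in both experiments were found for 1 transcript, PDLIM5 itself, although 110 had RNA changes as low in both and 17 had changes in footprints per RNA as low in both, PDLIM5 counted in each. With quantile normalization the count for footprints was 2, and with no filter on low values it was 8 of 10623 transcripts. PDLIM5 was known as the study's target when these places were counted, so they describe it and are not independent evidence about it.

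**Figure D4:**
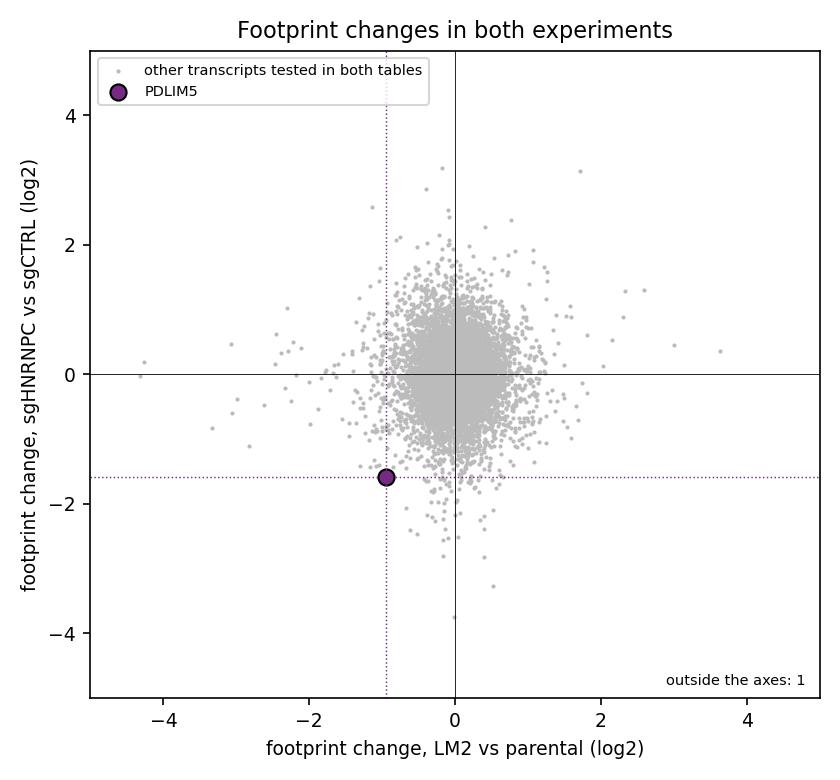
Log2 footprint change in sgHNRNPC against sgCTRL cells (vertical axis) set against that in LM2 against parental cells (horizontal axis) for the 8171 transcripts tested in both tables. Dotted lines pass through PDLIM5, at -0.94 and -1.58, and no other point lies in the quadrant below and to the left of them.

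Among the other transcripts, ENST00000413266 and ENST00000525566 had the profiles most like that of PDLIM5 over the 24 libraries. Likeness was Pearson's r of log2(value + 1) after each table and assay was centred on its own mean, and it was 0.98 for ENST00000413266 and 0.97 for ENST00000525566, against a median of 0.11 over 8170 transcripts. Of these, 78 had an r above 0.9. The points are the same libraries for every transcript and fall into groups, so r mostly reflects the direction and relative size of the group differences.

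ENST00000413266 fell in RNA and footprints in both experiments, by less in footprints than PDLIM5. Its footprint signal was 66.3 ± 2.43 in the LM2 group and 104 ± 11.3 in the parental group, and 33.8 ± 1.90 in sgHNRNPC cells and 78.7 ± 8.44 in sgCTRL cells (SD, n = 3 each). Its footprints per RNA changed by -0.26 (LM2) and -0.33 (knockdown), which did not pass the test (limma adjusted p = 0.243 and 0.0949). ENST00000525566 had footprints of 242 ± 12.7 in the LM2 group and 403 ± 21.2 in the parental group, and of 87.5 ± 11.9 in sgHNRNPC cells and 222 ± 7.88 in sgCTRL cells (SD, n = 3 each). Its footprints per RNA fell in LM2 cells (-0.56, limma adjusted p = 0.000931), and the change of -0.38 in knockdown cells did not pass the test (adjusted p = 0.0771). The tables do not pair these IDs with genes, so nothing is said of what they encode, and other PDZ and LIM proteins and the partners of PDLIM5 were not analysed here.

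The RNA values were deep enough that counting error was small beside the differences between groups. Every RNA value was a whole multiple of 1 step per library, and in these steps PDLIM5 had 4146 to 6643 reads in LM2 libraries, 4375 to 5697 in parental libraries, 1459 to 1728 in sgHNRNPC libraries and 2625 to 3015 in sgCTRL libraries. Counting alone gives such numbers a relative error of 1.23% to 2.62%, without any part from amplification. It was not small beside the replicate spread in every group. The SD of the RNA signal was 1.06% of the mean in parental cells, below their counting error of 1.32% to 1.51%. It was 2.36% in sgCTRL cells, against 1.82% to 1.95%. In LM2 and sgHNRNPC cells it was 4.19% and 6.62%. The RNA libraries held 23344230 to 52584688 such reads over the listed transcripts. Footprint values had no such step, so the number of footprint reads behind them is unknown. On the log2 scale the SD of PDLIM5 footprints between replicates was 0.05 in LM2 cells, 0.13 in parental cells, 0.13 in sgHNRNPC cells and 0.06 in sgCTRL cells, against a median SD of 0.14, 0.16, 0.17 and 0.18 over all transcripts tested in the same groups. For RNA the SD was 0.06 in LM2 cells, 0.02 in parental cells, 0.10 in sgHNRNPC cells and 0.03 in sgCTRL cells, against medians of 0.07 in each group. With 3 libraries against 3, an exact two-sided permutation test of PDLIM5 alone cannot give a p below 0.1, and it gave 0.1 for all 3 readouts in both experiments.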

How the data were processed

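The authors deposited 1 table per experiment with a normalized signal per transcript, 6 RNA and 6 footprint columns each, per the file headers. The submitters' processing notes name Bowtie2 2.3.5, cutadapt 2.3, SAMtools, UMI-tools and the hg38 build, without their roles. Per the labels' protocols, footprints and RNA were both taken from lysates made with cycloheximide. How reads common to several transcripts of a gene were assigned, with which annotation, and how values were scaled is not given in the sources used here. Reads of other PDLIM5 transcripts may be counted in this row. All RNA values (100%, within 0.05 of a whole step) were multiples of 1 step per library. No count model was run, since footprint values are not counts. Columns headed with the bare line name in the LM2 table were taken as parental.

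Transcripts with a mean of at least 10 in both assays of a table were tested on log2(value + 1), which understates changes of low values, with limma 3.58.1 in R 4.3.3 (variance trend, two-sided, Benjamini-Hochberg over all transcripts tested, threshold 0.05). Footprints per RNA were tested as an interaction over 12 libraries. PDLIM5 was named in every library, with the 2 transcripts of highest likeness beside it. Of 11396 transcript IDs, 0 matched the gene name tables, so the lists of related genes and cell markers were not analysed here. PDLIM5 and the lists were chosen with earlier results of these data known. In simulated data the footprints per RNA test recovered 44.3% (LM2 table, 9342 transcripts) and 30.6% (knockdown table, 8283) of log2 changes of 0.5, with 2.82% and 1.48% of calls false. The simulated noise was normal and independent between libraries, with the fitted SD. Changes were put into 200 transcripts, in footprints only. The shares hold for that setting and do not measure how many calls in the deposited data are false. No 2 columns were identical.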

Additional observations from a re-analysis of the deposited data

How the results depend on the processing

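All 68 alternatives run on the RNA and footprint changes of PDLIM5 left them lower and past the threshold. The size of the p-values depended on the fit. Without a variance trend the limma adjusted p was largest. It was 0.00113 (RNA) and 0.00308 (footprints) in LM2 cells, against 4.94e-07 and 2.23e-10 as reported. In knockdown cells it was 4.95e-06 and 0.000747, against 7.28e-14 and 9.74e-12. RNA changes ranged from -0.37 to -0.28 in LM2 cells and from -1.04 to -0.89 in knockdown cells, and footprint changes from -0.98 to -0.81 and from -1.65 to -1.51. The change in footprints per RNA was lower in all 34 alternatives and past the threshold in 28. Without a variance trend it was -0.59 in LM2 cells (limma adjusted p = 0.0525). With footprints and RNA paired by replicate number it was -0.59 in LM2 cells (limma adjusted p = 0.191) and -0.58 in knockdown cells (adjusted p = 0.112). The paired fit has fewer degrees of freedom, and its SE was also larger. The SE was 0.12 against 0.09 as reported in LM2 cells, and 0.15 against 0.12 in knockdown cells. Over fits that left out a replicate of both assays, the change in footprints per RNA ranged from -0.64 to -0.51 in LM2 cells, past the threshold in 6 of 6. In knockdown cells it ranged from -0.71 to -0.51, past the threshold in 3 of 6, with fewer samples in each of these fits. Over all alternatives its adjusted p ranged from 0.000472 to 0.191 in LM2 cells and from 0.00587 to 0.112 in knockdown cells. Deviations of same-numbered samples had correlations of -0.20 to 0.03 between groups for RNA and of -0.11 to 0.02 for footprints, none above 0.1. Between footprints and RNA of a group they were -0.0061 to 0.13, with 2 of 12 above 0.1. The replicate block changed no call of PDLIM5, with footprints per RNA at limma adjusted p = 0.0143 in LM2 cells and 0.0374 in knockdown cells. The number of transcripts called lower, behind the percentages beside PDLIM5, varied more, from 0 (paired fit) to 265 (without LM2 replicate 1) against 108 for footprints per RNA in LM2 cells and from 39 to 280 against 144 in knockdown cells, from 674 to 1884 against 1359 and from 1133 to 2277 against 1712 for footprints, and from 1706 to 3221 against 2875 and from 1994 to 4437 against 3761 for RNA. With the replicate block, 43 transcripts in LM2 cells and 183 in knockdown cells were called for footprints per RNA in either direction, against 152 and 452. Alternatives for the counts over both experiments were added after seeing the data. The unknown footprint depth and 3 replicates limit the test of footprints per RNA.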
